A study of Homo sapiens with 5 samples.

Results

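Ion channel genes encode the pore-forming and accessory subunits of channels for potassium, sodium and calcium, and of channels opened by glutamate or GABA. The genes here were all those whose symbols follow the naming pattern of potassium channels (KCN), sodium channels (SCN), voltage-gated calcium channels (CACNA), ionotropic glutamate receptors (GRIA, GRIK and GRIN), GABA-A receptors (GABR), ryanodine receptors (RYR) and TRP channels (TRPA, TRPC, TRPM and TRPV). The pattern also takes in accessory subunits such as KCNAB, KCNIP, KCNMB and CACNA2D genes. Of 63855 peaks in the 4 deposited peak lists, 500 were assigned by the authors to 113 such genes. These were 100 of 11229 FOXM1 peaks, 87 of 7834 LC3 peaks, 105 of 15544 EBSS evDNA peaks and 208 of 29248 control evDNA peaks. RefSeq holds 179 protein-coding genes of this pattern, and 67 of them had no assigned peak in any list.

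All samples came from A549, an established epithelial line derived from a human lung adenocarcinoma. Chromatin of untreated A549 cells, grown with serum and fixed with formaldehyde, was pulled down through FOXM1, a transcription factor of the forkhead family that acts in cell division. A second immunoprecipitation of the same kind of chromatin used an antibody against LC3, a ubiquitin-like protein that is attached to autophagosome membranes. EBSS evDNA was DNA of extracellular vesicles collected from cells after 3 days in EBSS, a balanced salt solution that lacks amino acids and serum. Control evDNA was vesicle DNA of cells with no treatment, and the medium for vesicle collection held no serum. By its title the series was about FOXM1 and the chromatin DNA that reaches vesicles. Each group had 1 library, so no difference between lists could be set against a spread between replicates. The input library was not analysed here, and peak lists hold no expression values against which the labelled cell type could be checked.

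Ion channels set the membrane potential and let calcium into the cytosol, and most of these genes are known best for their roles in neurons and in heart and skeletal muscle. Voltage-gated potassium, sodium and calcium channels open as the membrane depolarises, while glutamate and GABA receptors open when a transmitter binds. Ryanodine receptors release calcium from the endoplasmic reticulum, and TRP channels respond to lipids, temperature and other stimuli. Epithelial cells use a part of this repertoire. RNA levels were not analysed here.

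Peaks that lay on the start of a channel gene are the places where a sequence can be given, since the sequences to hand are windows of RefSeq promoters on GRCh38.p14, running from 250 bases before to 50 bases after a start. Windows were found for 131 channel genes. FOXM1 peaks overlapped none of them (0 of 131, exact 95% interval 0 to 2.78%), and over all protein-coding genes they overlapped the windows of 26 of 15843. LC3 peaks overlapped the windows of 6 channel genes (4.58%), against 418 of all genes (2.64%). EBSS evDNA peaks overlapped 3 (2.29%, against 0.530%) and control evDNA peaks 4 (3.05%, against 1.26%). These are few genes, and a difference from all genes was not tested. The LC3 peaks lay on KCNN2 (300 shared bases), KCNA3 (283), KCND2 (251), KCNH5 (105), TRPC6 (68) and KCNH8 (55). The EBSS evDNA peaks lay on GRIA4 (277), KCNIP4 (193) and KCNAB1 (135, in the more covered of its overlapping windows), and the control evDNA peaks on KCNJ3 (296), GRIN3A (179), KCNJ8 (154) and KCNK2 (81). No channel gene window was overlapped in more than 1 list. Some of these windows belong to starts inside the gene body, among them those of KCNN2, KCNIP4 and KCNK2.

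The first 3 windows printed are those that LC3 peaks covered most fully, and the last 2 are those that vesicle DNA peaks covered most fully, chosen after the values were seen. They are the RefSeq reference sequence, written 5′ to 3′ on the gene's strand. Capitals mark the searched motifs, of which KCND2 alone has any. KCNN2 is a small-conductance potassium channel gated by calcium. Its window, at chr5:114361820-114362119 on the plus strand, belongs to a start inside the gene. The KCNA3 window, at chr1:110673405-110673704 on the minus strand, belongs to a start inside the gene, which encodes a voltage-gated potassium channel of lymphocytes. Its bases include codons for TTVGYGD, a run of the potassium channel pore, so this window holds coding sequence. The LC3 peak on it lay 867 bases past the start in the authors' annotation. KCND2, a channel of the transient A-type potassium current, has its window at chr7:120272925-120273224 on the plus strand. The window of KCNJ3, a G protein-gated inward rectifier, is at chr2:154698445-154698744 on the plus strand, and that of GRIA4, an AMPA receptor subunit, at chr11:105610456-105610755 on the plus strand.
KCNN2: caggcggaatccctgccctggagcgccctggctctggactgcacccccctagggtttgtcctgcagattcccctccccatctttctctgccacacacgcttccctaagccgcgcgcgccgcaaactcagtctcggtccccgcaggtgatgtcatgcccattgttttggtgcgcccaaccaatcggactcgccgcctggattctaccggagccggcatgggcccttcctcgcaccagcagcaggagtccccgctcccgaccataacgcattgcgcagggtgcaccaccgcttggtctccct
KCNA3: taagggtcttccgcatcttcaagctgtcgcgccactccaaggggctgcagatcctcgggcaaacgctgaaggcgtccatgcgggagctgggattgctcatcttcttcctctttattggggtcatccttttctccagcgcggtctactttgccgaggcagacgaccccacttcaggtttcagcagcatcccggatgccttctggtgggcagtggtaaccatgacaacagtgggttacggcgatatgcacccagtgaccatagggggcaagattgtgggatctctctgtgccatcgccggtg
KCND2: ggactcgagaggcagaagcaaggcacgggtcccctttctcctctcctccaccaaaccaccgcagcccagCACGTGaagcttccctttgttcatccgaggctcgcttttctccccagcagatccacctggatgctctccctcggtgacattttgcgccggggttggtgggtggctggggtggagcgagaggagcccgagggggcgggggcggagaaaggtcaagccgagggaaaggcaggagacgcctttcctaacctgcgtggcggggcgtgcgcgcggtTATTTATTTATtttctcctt
KCNJ3: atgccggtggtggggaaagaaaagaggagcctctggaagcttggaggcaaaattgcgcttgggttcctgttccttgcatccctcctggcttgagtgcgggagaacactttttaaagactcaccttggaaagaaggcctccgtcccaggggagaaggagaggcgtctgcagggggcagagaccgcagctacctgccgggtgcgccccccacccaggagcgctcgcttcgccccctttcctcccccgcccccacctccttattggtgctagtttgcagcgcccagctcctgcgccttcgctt
GRIA4: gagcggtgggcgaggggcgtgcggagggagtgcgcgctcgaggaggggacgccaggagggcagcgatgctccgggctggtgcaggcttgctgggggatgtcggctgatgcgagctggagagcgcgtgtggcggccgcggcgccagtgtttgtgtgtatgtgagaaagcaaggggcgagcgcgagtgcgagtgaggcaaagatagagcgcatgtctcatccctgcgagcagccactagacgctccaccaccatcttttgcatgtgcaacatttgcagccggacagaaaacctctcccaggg

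Both strands of the windows were searched for 5 motifs: the forkhead motifs TAAACA and TGTTTAC, of which every match of the longer holds the shorter on its other strand, the cell cycle homology motif TTTGAA, the AT-rich motif TATTTAT, and the E-box CACGTG, which reads the same on both strands. KCND2 has CACGTG at position 70 and TATTTAT at positions 281 and 285, counted from 1 at the 5′ end, and these last matches overlap each other. None of the other 4 windows shown holds any of the 5 motifs, nor does any of the remaining channel gene windows that a peak overlapped. Over all 22183 windows in the table, TAAACA occurs in 9.54%, TGTTTAC in 2.85%, TTTGAA in 12.4%, TATTTAT in 3.74% and CACGTG in 8.34%. The 6 windows with an LC3 peak, that of KCNA3 included, had a median GC content of 63.2% and a median observed-to-expected CpG ratio of 0.741. The 118 channel gene windows with no peak had medians of 65.0% and 0.574, and all 15843 genes had 62.7% and 0.763.

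Channel gene peaks were shallow in every list. The fold is the authors' ratio of fragments at the peak summit to the local background, each with 1 added, and it was 2.31 to 3.85 in FOXM1, 2.27 to 4.17 in LC3, 2.00 to 3.84 in EBSS evDNA and 1.94 to 4.18 in control evDNA. The median folds of channel gene peaks were 2.89, 3.04, 2.79 and 2.81 in that order of lists, against 2.89, 3.02, 2.79 and 2.84 for all peaks. The highest folds of all peaks were 182 in FOXM1, 10.0 in LC3, 29.9 in EBSS evDNA and 24.9 in control evDNA, and no channel gene was near the top of any list. Fragments at the summit, recovered from the fold and the p-value, numbered 4 to 9 (median 5) in FOXM1, 6 to 13 (median 9) in LC3, 6 to 14 (median 8) in EBSS evDNA and 6 to 21 (median 9) in control evDNA. At such depths the folds take few values: a FOXM1 fold of 3.85 is 7 fragments over the list's lowest background of 1.08. No channel gene peak had a background of 10 fragments or more, the level above which 49 FOXM1, 32 LC3, 185 EBSS evDNA and 220 control evDNA peaks lay.

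The authors' q-value, a p-value adjusted over the list, was at most 0.05 for none of the 100 FOXM1 channel gene peaks, an exact 95% interval of 0 to 3.62%, against 1.97% of all FOXM1 peaks. It was at most 0.05 for none of the 87 LC3 channel gene peaks (0 to 4.15%), against 3.78% of the list. In EBSS evDNA 6 of 105 passed (5.71%, 2.13 to 12.0%), against 9.77%, and in control evDNA 24 of 208 (11.5%, 7.53 to 16.7%), against 13.3%. Exact intervals of shares are Clopper-Pearson intervals and cover counting error only, here and throughout. A difference between channel gene peaks and their lists was not detectable at this depth.

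**Figure D1:**
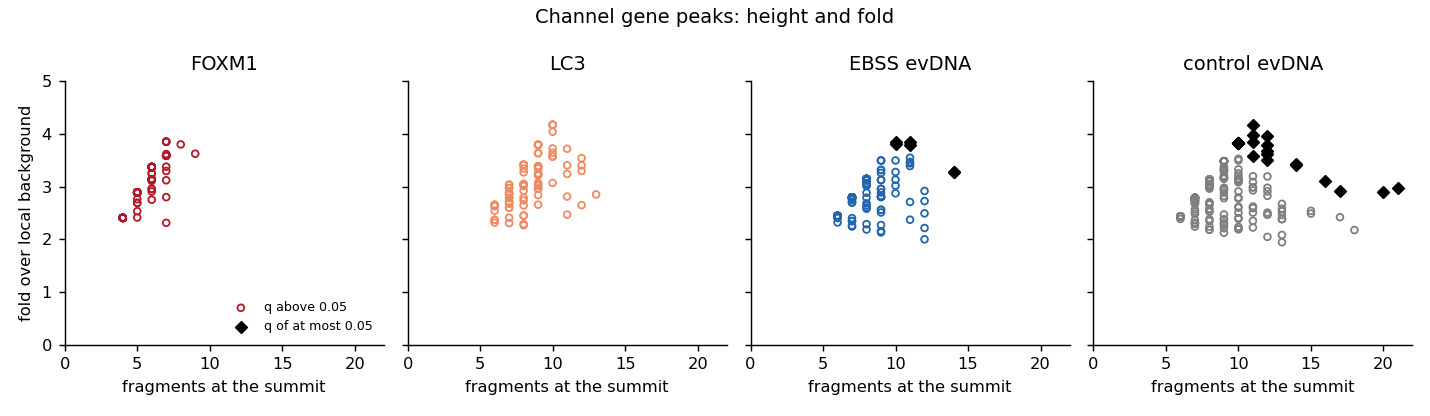
Each point is 1 peak assigned to a channel gene, with the recovered fragments at its summit on the x axis and the authors' fold over local background on the y axis, 1 panel per list. Filled diamonds have q of at most 0.05: there are none in FOXM1 and LC3, 6 in EBSS evDNA and 24 in control evDNA.

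The 6 EBSS evDNA peaks with q of at most 0.05 lay at KCNH1 (fold 3.84), KCNIP4 (3.84), SCN7A (3.81), KCNB2 (3.78), GRIN2B (3.27) and KCNMA1 (3.27). KCNH1 encodes a voltage-gated potassium channel of the ether-a-go-go family, KCNIP4 a calcium-binding accessory protein of A-type potassium channels, and KCNMA1 the large-conductance calcium-activated potassium channel. In control evDNA the highest fold was 4.18, in an intron of RYR2, the ryanodine receptor of heart muscle (chr1:237331602-237331971, 11 fragments). KCNH1 followed at 3.98 and the promoter of CACNA1C, the pore of the cardiac L-type calcium channel, at 3.96 (chr12:1970610-1971069, 12 fragments). Of the genes with such a peak in control evDNA, KCNH1, KCNB2 and GRIN2B also had one in EBSS evDNA. In FOXM1 the highest fold of 3.85 was reached at KCNT2, KCNN2, GABRB2 and KCNK10, and CACNA2D1 followed at 3.80. In LC3 it was 4.17 at KCNN2, KCNA3 and CACNA1E, each with 10 fragments, and KCNAB1 followed at 4.04.

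Measured by gene, channel genes had an assigned peak more often than protein-coding genes in general. FOXM1 peaks were assigned to 53 of the 179 channel genes in RefSeq (29.6%), against 11.5% of 20037 protein-coding genes. For LC3 the shares were 26.3% and 14.3%, for EBSS evDNA 33.5% and 20%, and for control evDNA 45.3% and 27.1%. Channel genes were also longer, with a median of 72.9 kb against 24.1 kb, and 43.0% of them against 16.7% of all genes spanned at least 100 kb. Among genes of at least 100 kb the shares were 51.9% of 77 channel genes against 35.7% of 3356 genes for FOXM1, 41.6% against 33.2% for LC3, 59.7% against 47.1% for EBSS evDNA and 64.9% against 60.8% for control evDNA.

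Counted per length of gene body, channel genes lay at 0.836 to 1.13 times the density of genes in general. FOXM1 peaks lay on channel gene bodies at 3.82 per Mb, against 3.37 per Mb for all protein-coding genes, a ratio of 1.13 (exact Poisson 95% interval 0.931 to 1.37). LC3 peaks lay at 3.26 per Mb, against 3.21, a ratio of 1.01 (0.819 to 1.24). For neither immunoprecipitation was a difference from genes in general detectable. EBSS evDNA peaks lay at 4.24 per Mb, against 5.08, a ratio of 0.836 (0.694 to 0.999). Control evDNA peaks lay at 8.10 per Mb, against 9.47, a ratio of 0.855 (0.748 to 0.973). Both vesicle lists thus had ratios below 1, but these did not hold under every setting. The EBSS evDNA interval included 1 among genes of at least 100 kb (0.836, 0.684 to 1.01), with p of at most 0.001 (0.947, 0.766 to 1.16), without peaks of high background (0.838, 0.695 to 1.001) and without chromosome 5 (0.900, 0.743 to 1.08). The control evDNA interval included 1 without chromosome 5 (0.897, 0.779 to 1.03) and lay below it under the other 3. Among genes of at least 100 kb the ratio was 1.02 in FOXM1, 1.22 in LC3 (0.972 to 1.52) and 0.850 in control evDNA (0.739 to 0.973). The whole-list share of channel gene peaks was 0.893% (0.727 to 1.09%) in FOXM1, 1.12% (0.894 to 1.37%) in LC3, 0.682% (0.558 to 0.825%) in EBSS evDNA and 0.717% (0.624 to 0.821%) in control evDNA.

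**Figure D2:**
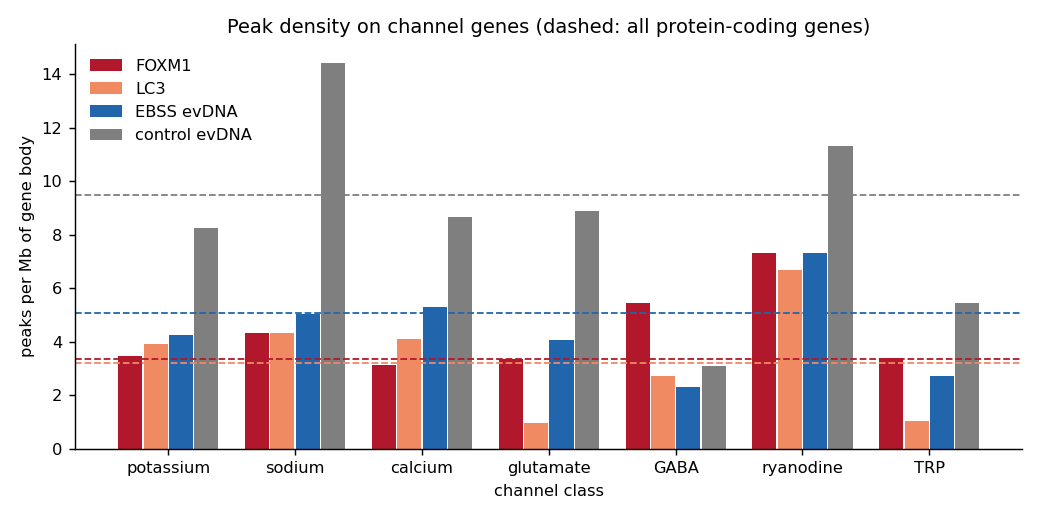
Bars give peaks per Mb of RefSeq gene body for 7 classes of channel genes in the 4 lists, and dashed lines of the same colours give the value over all protein-coding genes. Ryanodine receptors lay above the line in all 4 lists. Glutamate receptors lay below it in all 4 lists, narrowly so in FOXM1 (3.35 against 3.37 per Mb). TRP channels and GABA-A receptors lay below the line in LC3, EBSS evDNA and control evDNA.

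By class, potassium channel genes held 40 FOXM1, 47 LC3, 42 EBSS evDNA and 100 control evDNA peaks, the largest share of channel gene peaks in each list (40%, 54.0%, 40% and 48.1%). They are also 95 of the 179 genes. Glutamate receptor genes held 14 FOXM1 peaks (14%, 7.87 to 22.4%), 4 LC3 peaks (4.60%, 1.27 to 11.4%), 15 EBSS evDNA peaks (14.3%) and 25 control evDNA peaks (12.0%). GABA-A receptor genes held 14 FOXM1 peaks (14%), 5 LC3 peaks (5.75%), 7 EBSS evDNA peaks (6.67%) and 11 control evDNA peaks (5.29%). TRP channel genes held 10, 2, 8 and 18 peaks in the same order. Per Mb of gene body, LC3 peaks were sparse on glutamate receptors (0.959) and TRP channels (1.02) and FOXM1 peaks were dense on GABA-A receptors (5.43). GABA-A receptors had 2.71 in LC3, 2.33 in EBSS evDNA and 3.10 in control evDNA, where TRP channels had 5.45 and all protein-coding genes 9.47. These are few peaks, and a difference between lists was not tested.

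Of the 113 channel genes, 40 had peaks in 1 list, 27 in 2, 35 in 3 and 11 in all 4. The 11 are 6.15% of the 179, against 2.08% of all protein-coding genes, and among genes of at least 100 kb they are 10 of 77 (13.0%), against 9.89% of 3356. With the order FOXM1, LC3, EBSS evDNA and control evDNA, KCNN2 had 8, 3, 2 and 14 peaks and RYR3 had 6, 10, 1 and 4. RYR3 encodes the ryanodine receptor found in brain and other tissues. KCNN2 had most of its peaks in control evDNA and FOXM1, and RYR3 in LC3 and FOXM1. KCNH8, a voltage-gated potassium channel of the ELK group, had 5, 3, 1 and 2 peaks, and CACNA1E, the pore of the R-type calcium channel, had 2, 3, 3 and 2. GRIA1, an AMPA receptor subunit, had 3, 1, 1 and 5, KCNAB1, a beta subunit of voltage-gated potassium channels, had 2, 4, 1 and 3, and KCNK9, an acid-sensitive leak channel, had 1, 4, 1 and 4. LC3 had the most peaks at KCNAB1, and as many as control evDNA at KCNK9. Others among the 11 were KCND2 with 1, 1, 2 and 2 peaks, CACNA2D1 with 2, 1, 1 and 1, and KCNMB4 with 1 in each list. Both vesicle lists held a peak of 45 channel genes, 73.8% of the 61 in EBSS evDNA and 55.6% of the 81 in control evDNA. FOXM1 and LC3 both held one of 20, 37.0% of the 54 in FOXM1 and 42.6% of the 47 in LC3. Control evDNA, the longest list, also held a peak of 37 FOXM1 genes (68.5%) and 35 LC3 genes (74.5%). EBSS evDNA held one of 32 FOXM1 genes (59.3%) and 29 LC3 genes (61.7%). These shares were not counted over all protein-coding genes.

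**Figure D3:**
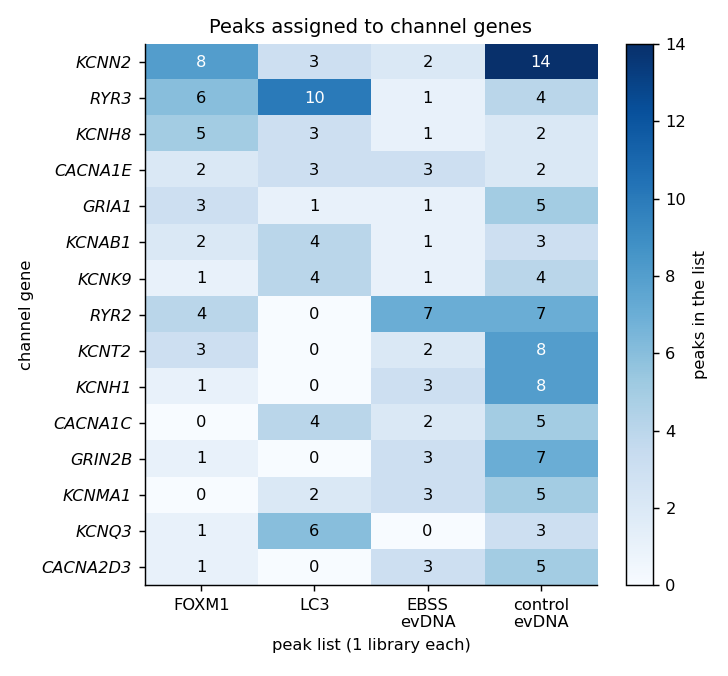
Rows are channel genes with at least 9 peaks in total, columns are the 4 lists, and each cell gives the number of assigned peaks, with darker blue for more. KCNN2 has 14 peaks in control evDNA and RYR3 has 10 in LC3, the largest counts of the plot.

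Several potassium channel genes differed in where their peaks lay. KCNQ3, a subunit of the M-current channel, had 1 FOXM1 peak, 6 LC3 peaks, none in EBSS evDNA and 3 in control evDNA. KCNH1 had 1 FOXM1 peak assigned to it, none in LC3, 3 in EBSS evDNA and 8 in control evDNA. KCNT2, a sodium-activated potassium channel, had 3 FOXM1 peaks, none in LC3, 2 in EBSS evDNA and 8 in control evDNA. KCNH1 and KCNT2 thus had most of their peaks in control evDNA, the list that held 45.8% of all peaks and 41.6% of channel gene peaks, while KCNQ3 had most of its peaks in LC3, which held 12.3% and 17.4%. Whatever gene it was assigned to, 1 LC3 peak lay on the body of KCNH1 and none on that of KCNT2. KCNIP1, which modulates A-type channels, had no FOXM1 peak, 5 LC3 peaks, 2 in EBSS evDNA and 1 in control evDNA. The inward rectifier genes KCNJ12 and KCNJ18 are near-identical copies, so their peaks, 1 each in LC3 and 2 and 3 in control evDNA, are uncertain.

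KCNN2 is the channel gene with most peaks, 27 over its gene body (chr5:114055978-114496496, 441 kb) and the gene-poor stretch before it. In FOXM1 its peaks lay between 113832747 and 114472670, at folds of 2.41 to 3.85. In LC3 the strongest was the promoter peak from 114361167 to 114362136, the one that covers the sequence given above, with a fold of 4.17 and 970 bases, the widest channel gene peak in the data. Whatever gene they were assigned to, 6 FOXM1, 1 LC3, 1 EBSS evDNA and 12 control evDNA peaks lay on the gene body, where the EBSS list held 15402 merged peaks in all and the control list 28993. Near its inner start, a FOXM1 peak of 4 fragments (114363983 to 114364417) overlapped a control evDNA peak of 11 fragments (114363846 to 114364168) at 186 bases.

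**Figure D4:**
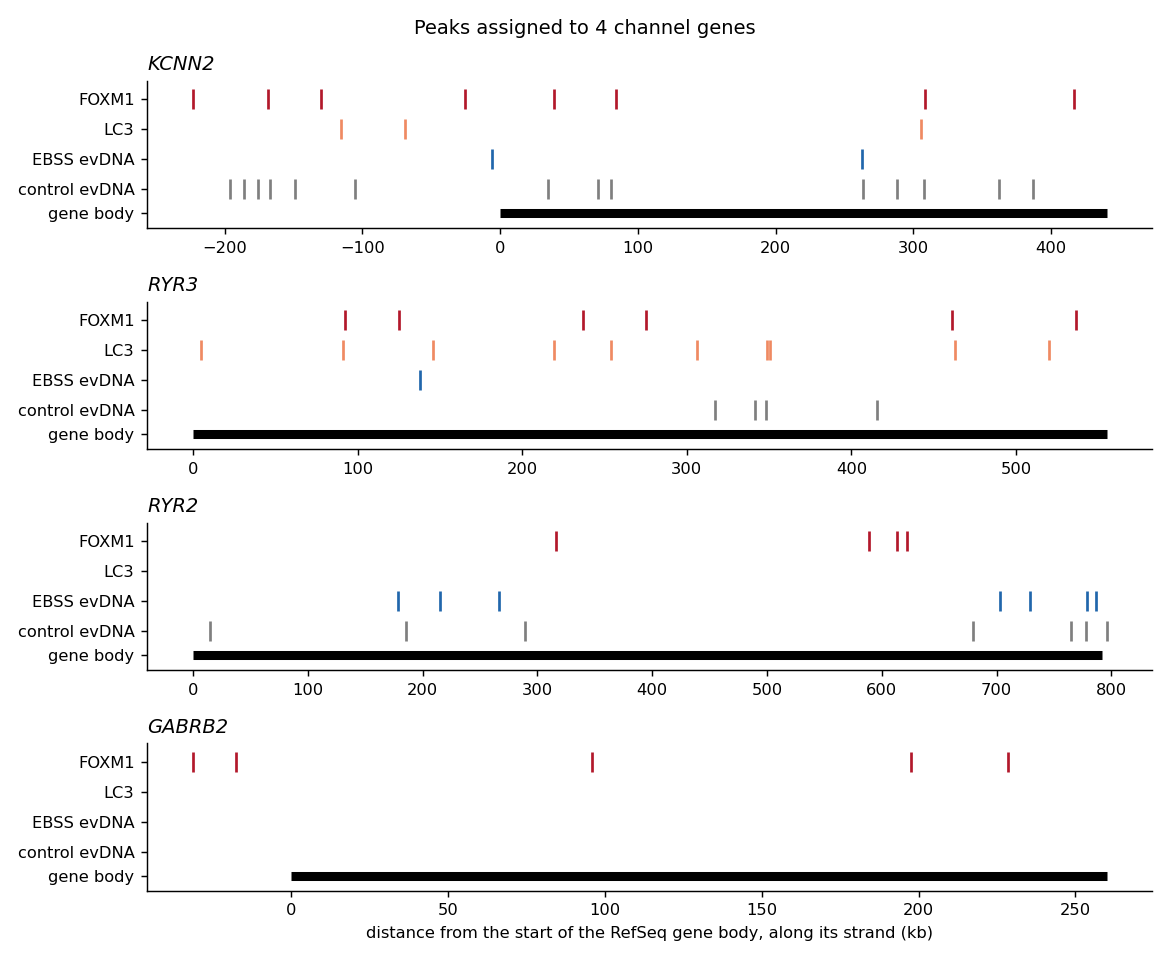
Vertical marks give the middle of each peak assigned to KCNN2, RYR3, RYR2 and GABRB2, by distance from the start of the RefSeq gene body along its strand in kb, with 1 row per list and the gene body as a black bar. GABRB2 had peaks in FOXM1 alone, and RYR2 had none in LC3.

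Chromosome 5 held 23 of 100 FOXM1 channel gene peaks (23%, 15.2 to 32.5%), against 9.66% of the FOXM1 list. It held 11 in LC3 (12.6%, against 8.41%), 10 in EBSS evDNA (9.52%, against 11.6%) and 29 in control evDNA (13.9%, against 15.0%). KCNN2 gave 8 of the FOXM1 peaks there and GABRB2 5. GABRB2, a beta subunit of the GABA-A receptor, had no peak in the other 3 lists, and its FOXM1 folds were 2.89 to 3.85. GRIA1, on the same chromosome, gave 3. Few loci thus made up the FOXM1 share of the chromosome. On chromosome 2, the sodium channel genes SCN1A, SCN9A and SCN7A, neighbours with gaps of at most 500 kb, together held 4 FOXM1 peaks, no LC3 peak, 3 EBSS evDNA peaks and 8 control evDNA peaks. They were set together after the values were seen. Neighbouring peaks share a locus and are not independent counts.

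Calcium channels and ryanodine receptors included long genes with several peaks. CACNA1C had no FOXM1 peak, 4 LC3 peaks, 2 EBSS evDNA peaks and 5 control evDNA peaks, at folds of 1.94 to 3.96. CACNA2D3, an accessory alpha2delta subunit, had 1 FOXM1 peak assigned to it, none in LC3, 3 in EBSS evDNA and 5 in control evDNA. On its gene body lay 2 FOXM1, 1 LC3, 5 EBSS evDNA and 10 control evDNA peaks, whatever gene they were assigned to. RYR2 had 4 FOXM1 peaks, all of 4 fragments and a fold of 2.41, none in LC3, 7 in EBSS evDNA and 7 in control evDNA. RYR3 carried 10 LC3 peaks over its body (chr15, 555 kb), at folds of 2.31 to 3.79, and 6 FOXM1 peaks at 3.29 to 3.59. All LC3 peaks of the ryanodine receptors were thus on RYR3. RYR1, the skeletal muscle receptor, had 1 peak, in EBSS evDNA. The nearest FOXM1 and LC3 peaks of any channel gene lay in an intron of CACNA1E, at chr1:181575044-181575361 (fold 3.37) and chr1:181575374-181575828 (fold 4.17), with 12 bases between them.

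Glutamate receptors and TRP channels had few LC3 peaks. GRIN2B, an NMDA receptor subunit, had 1 FOXM1 peak, none in LC3, 3 in EBSS evDNA and 7 in control evDNA. GRIA4 had 1 FOXM1 peak, none in LC3, 5 in EBSS evDNA and 2 in control evDNA. Both genes thus had most of their peaks in vesicle DNA, whose lists held 70.1% of all peaks and 62.6% of channel gene peaks. Whatever gene it was assigned to, 1 LC3 peak lay on the body of GRIA4. TRPM3, a cation channel opened by heat and by steroids, had 5 FOXM1 peaks, none in LC3, 3 in EBSS evDNA and none in control evDNA. TRPC6, which diacylglycerol opens, had 1 FOXM1 peak, 1 LC3 peak, none in EBSS evDNA and 6 in control evDNA. TRPV2 was the single TRPV gene with a peak, 1 in control evDNA at a fold of 2.05, and TRPA1 had 1 peak in FOXM1 and 1 in control evDNA.

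LC3 differed from the other lists in how many channel gene peaks were promoter peaks, that is, no more than 1 kb from a start of transcription (TSS) in the authors' annotation. In FOXM1 4 of 100 did (4%, 1.10 to 9.93%, against 6.1% of the list), in LC3 22 of 87 (25.3%, 16.6 to 35.7%, against 28.5%), in EBSS evDNA 10 of 105 (9.52%, against 9.39%) and in control evDNA 20 of 208 (9.62%, against 9.28%). LC3 had the highest share and FOXM1 the lowest. The FOXM1 share was below the LC3 share by -21.3 percentage points (FOXM1 minus LC3, Newcombe 95% interval -31.6 to -11.4). LC3 exceeded EBSS evDNA by 15.8 points (5.08 to 26.7) and control evDNA by 15.7 points (6.40 to 26.2), and the evDNA lists differed by -0.0916 points (EBSS minus control, -6.49 to 7.76). Between channel gene peaks and the other peaks of their own list no difference was detectable, since the 4 intervals of that difference all included 0. LC3 had the highest share and FOXM1 the lowest over the whole lists too.

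**Figure D5:**
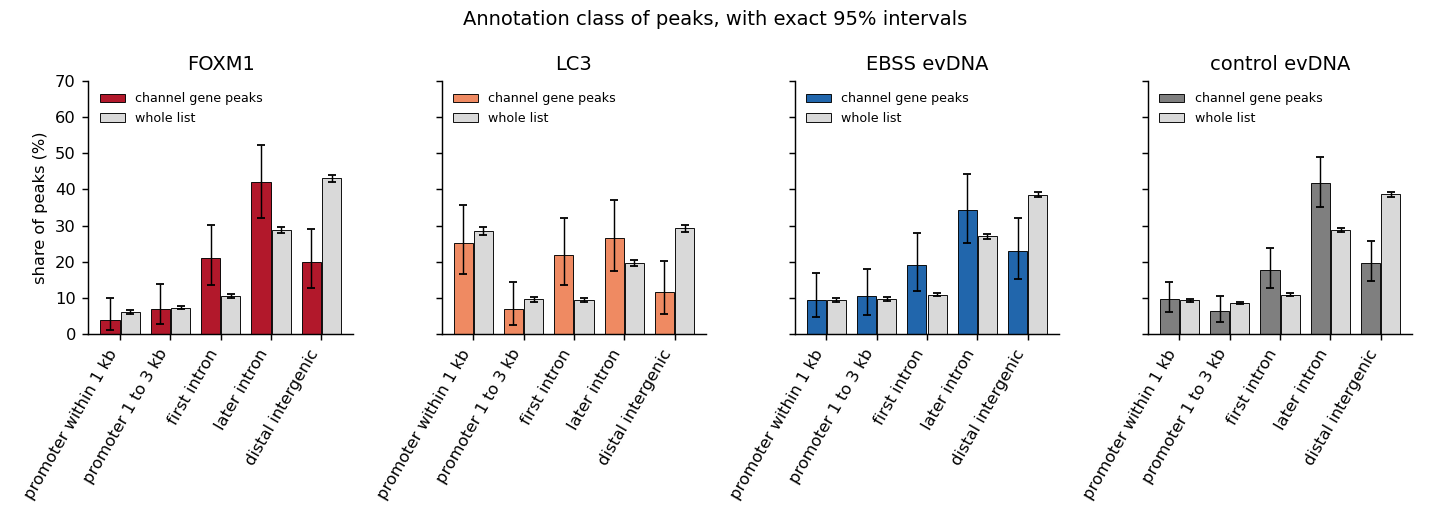
For each list, coloured bars give the share of channel gene peaks and light grey bars that of all peaks, in percent, by annotation class, with exact 95% intervals. Promoter shares of channel gene peaks follow those of their list, intron shares are higher and distal intergenic shares lower in all 4 lists.

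The promoter peaks of FOXM1 lay at KCNK13 (fold 3.62), RYR3 (3.29), GRIK2 (3.14) and KCNN2 (2.41), of which KCNK13 belongs to the potassium leak channels and GRIK2 a kainate receptor subunit. The 22 of LC3 lay at 21 genes, KCNK9 having 2, and included KCNN2 and KCNA3 (4.17 each), KCND2 (3.79), KCNK9 (3.72) and SCN8A (3.57). Further ones were GABRA5, KCNQ5, GRIN3A, KCNH8, CACNA2D2, KCNH7, CACNA2D1, KCNQ3, KCNG1, KCNH5, SCN4A, KCNB2, TRPC6 and RYR3, at folds of 2.31 to 3.54. Voltage-gated potassium channels gave 9 of them. Genes with a promoter peak in more than 1 list included KCNN2 and RYR3 (FOXM1, LC3 and control evDNA), KCNB2 (LC3, EBSS evDNA and control evDNA), GRIN3A and TRPC6 (LC3 and control evDNA) and SCN8A (LC3 and EBSS evDNA). The annotation counts starts of every listed transcript, and the 3 RYR3 promoter peaks lay inside its gene body at different places. The LC3 promoter peak of KCNA3 also lay inside its gene. No FOXM1 peak lay on the RefSeq body of KCNK13 or GRIK2. The GRIK2 peak, at chr6:101182073-101182469, lay far before that body, which starts at 101393708. LC3 promoter peaks on channel genes were 304 to 970 bases wide with a median of 389, against 383 for all LC3 promoter peaks.

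Away from promoters, channel gene peaks lay in introns more often than their lists. First introns took 21% of FOXM1 channel gene peaks against 10.5% of the list, 21.8% against 9.41% for LC3, 19.0% against 10.9% for EBSS evDNA and 17.8% against 10.9% for control evDNA. Later introns took 42%, 26.4%, 34.3% and 41.8% of channel gene peaks, against 28.9%, 19.7%, 27.1% and 28.8% of the lists, and the intervals for LC3 (17.6 to 37.0%) and EBSS evDNA (25.3 to 44.2%) included the list's value. Distal intergenic peaks took 20%, 11.5%, 22.9% and 19.7%, against 43.1%, 29.3%, 38.6% and 38.6%. Assignment to a named protein-coding gene and the length of these genes move with these shares, and their part was not tested. On the RefSeq body of the gene they were assigned to lay 63 of 100 FOXM1, 67 of 87 LC3, 75 of 105 EBSS evDNA and 143 of 208 control evDNA channel gene peaks.

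Few channel gene peaks lay at a place shared by lists. A peak of another list overlapped 3 of 100 FOXM1 peaks (3%, 0.623 to 8.52%), against 3.81% of that list, and 2 of 87 LC3 peaks (2.30%, 0.280 to 8.06%), against 5.97%. It overlapped 8 of 105 EBSS evDNA peaks (7.62%, 3.35 to 14.5%), against 13.1%, and 11 of 208 control evDNA peaks (5.29%, 2.67 to 9.27%), against 7.66%. FOXM1 and LC3 shared no channel gene place (0 of 100 FOXM1 peaks, 0 to 3.62%), against 1.38% in the whole list, so a difference was not detectable at this depth. The 12 shared places were 2 for FOXM1 with control evDNA (GABRA6 and KCNN2), 1 for FOXM1 with EBSS evDNA (SCN7A), 2 for LC3 with control evDNA (GRIN3A and SCN11A) and 7 for EBSS with control evDNA (among them KCNB2 at 2 places, KCNH1, KCNN2 and KCNT2).

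Shared places were as shallow as the rest. Among places shared by the evDNA lists, the highest EBSS evDNA fold was in an intron of KCNB2, a delayed rectifier potassium channel. There EBSS evDNA had 3.78 and 11 fragments (chr8:72551253-72551605), and control evDNA had 3.48 and 9 fragments (chr8:72551516-72551904). The KCNB2 promoter had a fold of 2.79 in EBSS evDNA and 3.83 in control evDNA, and its LC3 peak, of fold 2.71, ended 62 bases before the EBSS peak. At an intron of SCN11A, a sodium channel of pain-sensing neurons, LC3 had a fold of 3.64 (chr3:38916518-38916942) and control evDNA 2.78. At the promoter of GRIN3A, an NMDA receptor subunit, LC3 had 3.38 and control evDNA 2.78. LC3 had the higher fold at both places, from 10 fragments against 7 at SCN11A and 9 against 7 at GRIN3A. With so few fragments in single libraries, a difference between the lists was not tested. The SCN7A place, intergenic, had a fold of 2.41 and 4 fragments in FOXM1, and 3.49 and 9 fragments in EBSS evDNA.

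A list of 110 other channel and receptor scaffold genes, outside the naming pattern, was counted beside these. FOXM1 had a peak at 26 of them (23.6%, against 11.5% of all protein-coding genes), LC3 at 35 (31.8%, against 14.3%), EBSS evDNA at 33 (30%, against 20%) and control evDNA at 40 (36.4%, against 27.1%). Promoter peaks were at 4 of them in FOXM1 (3.64%, against 1.53%), 16 in LC3 (14.5%, against 7.69%), 8 in EBSS evDNA (7.27%, against 3.48%) and 11 in control evDNA (10%, against 5.98%). LC3 had the highest share among these genes as among all genes. Among the 23 receptor scaffold and anchoring genes, 13 had a FOXM1 peak, 11 an LC3 peak, 10 an EBSS evDNA peak and 16 a control evDNA peak. These included ANK3, the ankyrin that anchors sodium channels, with 5, 2, 1 and 4 peaks. The 28 other ligand-gated channel genes had a peak at 1 gene in FOXM1, 6 in LC3, 6 in EBSS evDNA and 7 in control evDNA. CFTR, the chloride channel of airway epithelium, had no peak in any list.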

How the data were processed

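The 4 peak lists were taken from the processed files, each called on 1 library. The submitters' processing notes name hg38 and, as tools, MACS3 3.0.0a6, ChIPseeker, BWA, FastQC 0.11.8 and fastp 0.20.0. Per the file headers, the lists hold the authors' fold over local background (a linear ratio), and for each peak the −log10 of its p-value and of its q-value. A score per peak was also deposited by the authors and was not used. The EBSS evDNA headings of the p and q columns are damaged, and those columns were identified by position and by the Poisson recovery below. Which control the peak caller was given, and read totals, are not given in the sources used here. The lowest background was 1.08 fragments in FOXM1, 1.64 in LC3, 1.86 in EBSS evDNA and 1.87 in control evDNA, and the part of depth in the list lengths was not tested.

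Rows with the same interval were merged to the strongest summit, which left 11195 FOXM1, 7801 LC3, 15402 EBSS evDNA and 28993 control evDNA peaks; no channel gene row was affected. Summit fragments and background were solved from the fold and p-value within 0.01, which succeeded for all 500 channel gene peaks; the steps were tested on simulated data. Lists share a place where at least 1 base overlaps. Gene bodies came from RefSeq GRCh38.p14, the same assembly as hg38. Python 3.11.15, pandas 2.3.3, numpy 2.4.6, scipy 1.17.1 and matplotlib 3.10.9 were used. With 1 library per group no test between conditions was made, and the samples were grouped by antibody and treatment labels.

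Named genes were those with peaks in all 4 lists, the 5 of highest fold per list, those with promoter peaks in 2 or more lists, those with most peaks in each of 18 subfamilies, and those with overlapping peaks. Further genes (KCNQ3, KCNIP1, KCNMA1, GRIA4, KCNJ3, RYR2, KCNJ12, ANK3, CFTR and the sodium channel genes of chromosome 2) were chosen after their values were seen. Members, gene lists and motifs were chosen with earlier results of these data known. Some genes that the rule picks are not reported here.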

Additional observations from a re-analysis of the deposited data

How the results depend on the processing

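Of 67 alternative values computed, 56 lay within the main value's 95% interval or, for counts of genes or of overlapping peaks, within 1.5 times the main count. With q of at most 0.05, channel genes took 0% of the FOXM1 list, 0% of the LC3 list and 0.399% of the EBSS evDNA list. With promoters up to 3 kb from a TSS, the promoter share of channel gene peaks was 11% in FOXM1, 20% in EBSS evDNA and 15.9% in control evDNA, and LC3, at 32.2%, was still the highest. Requiring an overlap of 50% of the shorter peak, 1 LC3, 5 EBSS evDNA and 7 control evDNA channel gene peaks overlapped another list. With p of at most 0.001, 1 FOXM1 and 5 EBSS evDNA peaks did. The ratio of peaks per Mb for EBSS evDNA was 0.947 with p of at most 0.001 and 0.900 without chromosome 5, an alternative chosen after the data were seen, and 0.897 for control evDNA there, and these 3 intervals included 1. FOXM1 channel genes took 0.761% of the list without chromosome 5. Channel genes with a peak in all 4 lists numbered 9 with p of at most 0.001, 14 by gene body and 8 without accessory subunits. The 14 left out GRIA1, KCNK9, CACNA2D1 and KCNMB4, which were among the 11 by assignment. Among the genes they took in were KCNH1, GRIA4 and CACNA2D3, which had no LC3 peak by assignment. No paired analysis was possible because each group had 1 library. Depth limits all of this: summits of 4 to 21 fragments give no firm single peak.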
